A study of Mus musculus with 32 samples.

Results

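F13a1 and 6 further genes of coagulation and fibrinolysis (F10, F7, F3, Plau, Plaur and Thbs1) were followed through 32 RNA sequencing libraries of BV-2 cells. They were picked by gene symbol, and these 7 genes were all found among the 45706 genes of the deposited table. The set was drawn up around measured values, because F13a1 was already known to be far lower under LPS in scramble cells and far higher with miR-146a under LPS. For these 2 comparisons, and for the interactions of each mimic with LPS, which contain the LPS change in scramble cells, the values of the 7 genes are therefore descriptions without a test. Tests elsewhere are of other contrasts, but those that use VEH_scramble, LPS_scramble or LPS_miR-146a share libraries with the choice of F13a1 and are not independent of it, which leaves LPS in miR-7a and in miR-29a cells as the comparisons without such libraries. BV-2 is an immortalised murine microglial line, labelled wild type, so every group is the same line and no animal or brain tissue stands behind a library. Each culture received a scramble control or 1 microRNA mimic, a synthetic RNA that supplies the mature microRNA, and the mimics were those of miR-7a-5p, of miR-29a-3p and of miR-146a-5p. They were kept in vehicle (VEH) or in lipopolysaccharide (LPS) at 10 ng/ml for 24 h. Crossing the 4 transfections with the 2 treatments gives 8 groups of 4 libraries, named by treatment and transfection (VEH_scramble, LPS_miR-7a and so on). The labels place LPS before transfection and the methods describe transfection and then LPS, so the order is not settled here. The study gives its n as independent experiments. All 3 mimics are set against 1 set of 4 scramble libraries per treatment, and their contrasts therefore depend on each other.

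Blood clots through a chain of proteases. Tissue factor (F3), a membrane receptor, binds coagulation factor VII (F7), and this complex activates factor X (F10), which in turn activates thrombin and leads to fibrin. Factor XIII, whose catalytic A subunit is encoded by F13a1, is a transglutaminase that cross-links fibrin and is also made by macrophages. Fibrin is removed by plasmin, which urokinase (Plau) generates at the cell surface where its receptor (Plaur) holds it. Thrombospondin 1 (Thbs1) is a matrix glycoprotein stored in platelets that binds Cd36 and Cd47. Several of these genes are expressed by tissue macrophages outside the clotting reaction.

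The sequences of the 3 mimicked microRNAs are given first because the groups differ by them. They are taken from RefSeq on GRCm38.p6, read 5′ to 3′, with the seed (bases 2 to 8, which pair with targets) in capitals.
miR-7a-5p: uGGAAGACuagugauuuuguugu
miR-29a-3p: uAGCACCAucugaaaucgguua
miR-146a-5p: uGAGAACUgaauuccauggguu
The mouse genome encodes miR-7a-5p at chromosome 7, 78888295 to 78888317 (plus strand), and at chromosome 13, 58392841 to 58392863 (minus strand). miR-29a-3p lies on chromosome 6, 31062673 to 31062694 (minus strand), and miR-146a-5p on chromosome 11, 43374435 to 43374456 (minus strand).

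The longest annotated 3′ UTR of each member (GENCODE vM21, GRCm38) was searched for the 7 letters complementary to each seed, GTCTTCC for miR-7a, TGGTGCT for miR-29a and AGTTCTC for miR-146a. Of the 21 pairs of member and mimic, 1 held a match, miR-7a in Plau. It stands at bases 639 to 645 of the 935 bases of the Plau 3′ UTR, at chromosome 14, 20843089 to 20843095 (plus strand), and an A follows it. It is shown in capitals with its flanks because it is the 1 match to set beside the measured levels.
Plau site: gatgcggggccatttgGTCTTCCatgtgat
Of 2939 genes with a 3′ UTR between 0.8 and 1.25 times as long, 9.22% held GTCTTCC, and of all 21037 genes with a 3′ UTR 11.9% did. The F13a1 3′ UTR (1587 bases) held none of the 3 motifs, while of 3161 UTRs of like length 14.2% held the miR-7a motif, 14% that of miR-29a and 12.2% that of miR-146a. These are letter matches in 1 window and say nothing about binding.

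The libraries held 1145440 to 20795945 restored counts, so 3 counts, taken as the floor of detection, correspond to 0.138 to 3.85 CPM. CPM are counts per 1000000, on library totals scaled by TMM (a factor that evens out composition between libraries). VEH_miR-7a stood apart, since small structural RNA genes took 33.4% to 37.3% of the counts in its replicates 2, 3 and 4 and 4.05% in replicate 1, against 2.71% to 19.4% in the other 28 libraries. Where a log2 fold change of a member against this group is discussed, its value without those 3 libraries is given too. All 8 microglia and macrophage markers were detected, with a summed level of 1825 to 4071 CPM per library, although Cx3cr1 lay between 0 and 6.59 CPM. Summed markers of astrocytes, neurons, fibroblasts and pericytes, and hepatocytes stayed at or under 3.03 CPM, and those of oligodendrocytes at 2.44 to 18 CPM. The endothelial sum of 106 to 313 CPM was almost wholly Kdr, while Cldn5 was above 0 in 1 library and Cdh5 did not exceed 0.507 CPM. This sum averaged 116 to 177 CPM in the vehicle groups and 232 to 298 CPM in the LPS groups, and the microglial sum was lowest in LPS_miR-29a (1971 CPM, against 2664 CPM in LPS_scramble). The part of these shifts in the results was not tested. In bulk RNA, fewer expressing cells and less RNA per cell cannot be told apart.

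F13a1 was an abundant transcript in vehicle and a scarce one in LPS, and the miR-146a libraries lay above scramble in both conditions and the miR-29a libraries below it under LPS. Its gene lies on chromosome 13, 36867178 to 37050244 (minus strand), and 2 antisense genes overlap it on the opposite strand, which were not analysed here. Whether reads were counted by strand is not stated in the sources used here. No F13a1 value needed a decimal mark restored.

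In VEH_scramble F13a1 measured 829, 867, 669 and 841 CPM, a mean of 802 ± 90.0 (SD, n = 4). The 4 LPS_scramble libraries held 39.9, 21.9, 29.6 and 26.8 CPM, a mean of 29.6 ± 7.59 (SD, n = 4). The highest LPS library was thus far below the lowest vehicle library, and the fitted level was 28.3-fold lower (log2 fold change -4.82 ± 0.18, SE).

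With miR-7a the vehicle libraries held 730, 537, 674 and 908 CPM and the LPS libraries 30.9, 27.4, 17.6 and 50.8 CPM. The 2 sets did not overlap, and F13a1 was 24.1-fold lower under LPS (log2 fold change -4.59 ± 0.27, limma adjusted p = 1.31e-06). Without the 3 VEH_miR-7a libraries rich in structural RNA, which leaves 1 vehicle library assumed to vary like the LPS group, the log2 fold change was -4.62 (adjusted p = 0.00292).

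With miR-29a the vehicle libraries measured 639, 427, 432 and 585 CPM, and the LPS libraries 14.2, 4.99, 9.32 and 3.95 CPM. This is the lowest of the 8 groups (mean 8.11 ± 4.67 CPM, SD, n = 4), 73.6-fold below its vehicle group (log2 fold change -6.20 ± 0.30, limma adjusted p = 2.4e-07).

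With miR-146a the vehicle libraries held the highest levels of the study, at 1623, 1853, 1548 and 1646 CPM. Under LPS they held 145.8, 106, 164 and 79.8 CPM, all above every other LPS library. The fall in these cells was 13.7-fold (log2 fold change -3.77 ± 0.19, limma adjusted p = 1.89e-07).

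**Figure D1:**
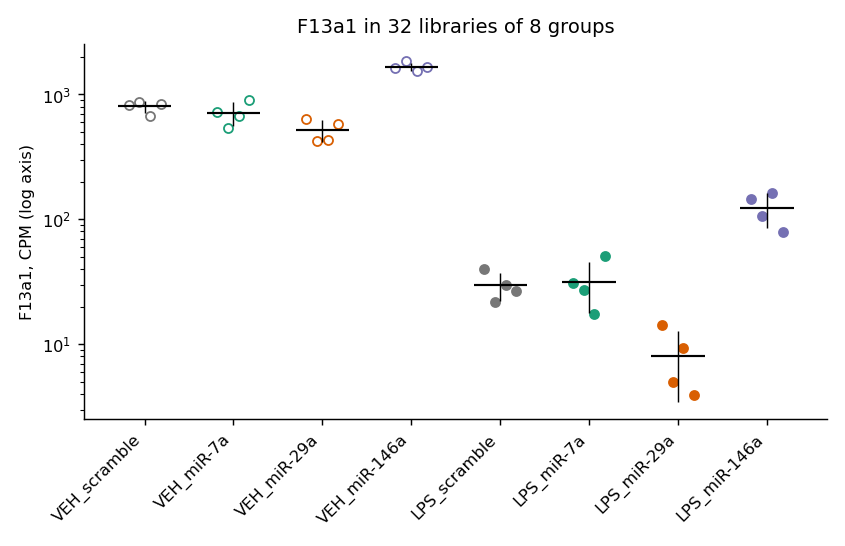
F13a1 in CPM (log axis) in each library of the 8 groups. Open circles are vehicle, filled circles LPS, horizontal lines the group means and vertical lines 1 SD (n = 4). All LPS libraries, at 3.95 to 164 CPM, sit below all vehicle libraries, at 427 to 1853 CPM.

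Against scramble under vehicle, miR-146a left F13a1 2.13-fold higher (log2 fold change 1.09 ± 0.15, limma adjusted p = 0.00972), with all 4 libraries above all 4 scramble libraries. It was the 1 member called of the 6 that passed the filter, beside 2.46% of the 11863 genes tested. Without VEH_miR-146a replicate 3 the log2 fold change was 1.13 and the adjusted p 0.05, a call lost, and it held in the other 7 fits that left out a library. Over all genes this comparison called 292, but 0 without VEH_miR-146a replicate 3 and 1266 without VEH_scramble replicate 1. Under LPS the miR-146a libraries were 4.51-fold above scramble (log2 fold change 2.17 ± 0.22), and the interaction of miR-146a and LPS was 1.05 ± 0.27 on the log2 scale. Leaving out libraries gave 2.03 to 2.32 for the first and 1.00 to 1.17 for the second.

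Under LPS, miR-29a lowered F13a1 3.87-fold against scramble (log2 fold change -1.95 ± 0.31, limma adjusted p = 0.00704). The 4 libraries, at 3.95 to 14.2 CPM, lay below the 4 scramble libraries, at 21.9 to 39.9 CPM, and the call held in all 8 fits that left out a library. Under vehicle the 4 miR-29a libraries also lay below scramble, but overlapped it on plain library totals (381 to 652 against 574 to 851), and the log2 fold change of -0.63 ± 0.19 did not pass (limma adjusted p = 0.28). The interaction of miR-29a and LPS was -1.35 ± 0.36 on the log2 scale, given without a test.

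With miR-7a F13a1 was not shown to differ from scramble. Its log2 fold change was -0.16 ± 0.19 under vehicle (limma adjusted p = 0.749, or -0.12 without the 3 libraries rich in structural RNA) and 0.11 ± 0.29 under LPS (limma adjusted p = 0.886), and the libraries overlapped in both. In the order of group means, VEH_scramble, VEH_miR-7a and VEH_miR-29a were neighbours whose ranges overlapped in turn, as did LPS_miR-7a and LPS_scramble.

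The sum of 4 markers of platelets and megakaryocytes, which also make F13a1, was lower under LPS too. It averaged 93.5 to 128 CPM in the vehicle groups and 43.6 to 56.7 CPM in the LPS groups, and lay between 30.6 and 180 CPM over single libraries. Between scramble and miR-146a it was 127 against 128 CPM under vehicle and 49.2 against 56.7 CPM under LPS. All 4 markers were above 0 in at least 1 library, but nearly all of the sum was Pf4 (30.3 to 179 CPM). Ppbp and Gp1ba had a median of 0 CPM, with counts in 6 and 7 of the 32 libraries, and Itga2b did not exceed 1.65 CPM. The part of these markers in the F13a1 result was not tested.

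Plau and Plaur are the urokinase ligand and receptor pair. LPS lowered both in miR-29a and in miR-146a cells, and Plaur in miR-7a cells too. Plau in miR-7a cells did not pass in limma but did in other fits, and the scramble values carry no test. Plau lies on chromosome 14, 20836660 to 20843385 (plus strand), and Plaur on chromosome 7, 24462484 to 24475968 (plus strand). Per kilobase of exon, Plau in VEH_scramble (226 CPM per kb) was above F13a1 in the same group (119 CPM per kb), and Plaur was far below both at 15 CPM per kb.

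Plaur measured 33.7, 50.7, 37.1 and 35.6 CPM in VEH_scramble and 18, 12.4, 14 and 16.1 CPM in LPS_scramble, 2 ranges that did not overlap (log2 fold change -1.37 ± 0.18). In miR-7a cells Plaur fell from a mean of 35.2 ± 7.23 to 14.8 ± 1.17 CPM (SD, n = 4; log2 fold change -1.28 ± 0.19, limma adjusted p = 0.00163). Without the 3 VEH_miR-7a libraries rich in structural RNA the log2 fold change was -1.37 and no longer called (adjusted p = 0.0537), and on plain totals the libraries overlapped (14.8 to 18.6 under LPS against 17.1 to 40.2). In miR-29a cells the fall was 3.43-fold, to 7.97, 9.41, 6.57 and 9.15 CPM, the lowest group of Plaur (limma adjusted p = 0.000197). In miR-146a cells the change was smallest, from 37.5 ± 4.95 to 22.3 ± 2.07 CPM (SD, n = 4; log2 fold change -0.75 ± 0.17, limma adjusted p = 0.0216), a call lost in 5 of the 8 fits that left out a library (LPS_miR-146a replicate 1 or 3, or VEH_miR-146a replicate 1, 2 or 4), with an adjusted p of 0.0509 to 0.0747.

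Against scramble under LPS, Plaur followed the pattern of F13a1 at a smaller size. The 4 LPS_miR-29a libraries lay below all scramble libraries, and Plaur was 1.77-fold lower (log2 fold change -0.82 ± 0.18, limma adjusted p = 0.0241). This call was lost in 5 of the 8 fits that left out a library (LPS_miR-29a replicate 1 or 3, or LPS_scramble replicate 1, 3 or 4), with an adjusted p of 0.0526 to 0.0938. The 4 LPS_miR-146a libraries, at 22.2, 23.9, 19.4 and 23.5 CPM, lay above all scramble libraries (log2 fold change 0.60 ± 0.16). With miR-7a the log2 fold change was 0.03 ± 0.15 (limma adjusted p = 0.948). Under vehicle no mimic gave Plaur a difference that passed. The log2 fold change was -0.10 with miR-7a (limma adjusted p = 0.876, or 0.00 without the 3 libraries rich in structural RNA), -0.46 with miR-29a (adjusted p = 0.485) and -0.02 with miR-146a (adjusted p = 0.958).

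Plau fell under LPS in scramble cells from 307, 428, 669 and 737 CPM to 120, 124, 179 and 185 CPM (log2 fold change -1.74 ± 0.26). In miR-29a cells it fell 3.11-fold (log2 fold change -1.64 ± 0.31, limma adjusted p = 0.00263) and in miR-146a cells 2.32-fold (log2 fold change -1.22 ± 0.30, limma adjusted p = 0.0377). The call in miR-146a cells was lost in 5 of the 8 fits that left out a library (LPS_miR-146a replicate 1, 2 or 4, or VEH_miR-146a replicate 3 or 4), with an adjusted p of 0.0536 to 0.114. In miR-7a cells the vehicle libraries (230, 239, 343 and 513 CPM) and the LPS libraries (152, 139, 233 and 246 CPM) overlapped. Each LPS library still lay below the vehicle library of its replicate number. A log2 fold change of -0.73 ± 0.26 did not pass in limma (adjusted p = 0.132). It passed in DESeq2 (adjusted p = 0.043) and with the replicate number as a block (adjusted p = 0.00266). Leaving out a library gave an adjusted p of up to 0.295. Without the 3 libraries rich in structural RNA the log2 fold change was -0.30.

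The spread of Plau within a group followed the replicate number. In 8 of 8 groups replicates 3 and 4 both lay above replicates 1 and 2, which held for 2 groups of F10, 1 of F3 and none of F13a1, F7, Plaur and Thbs1. The reverse, with both below, held for 3 groups of Thbs1 and 2 each of F10 and F7. How many of all genes show such an order was not counted. Replicate numbers also paired libraries over all genes in 6 of the 13 comparisons, so for these a fit with the replicate number as a block is given beside a result whose call it changes. For LPS in miR-7a cells, outside these 6, the block is given for Plau. The Plau pattern was seen in the data and carries no test.

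**Figure D2:**
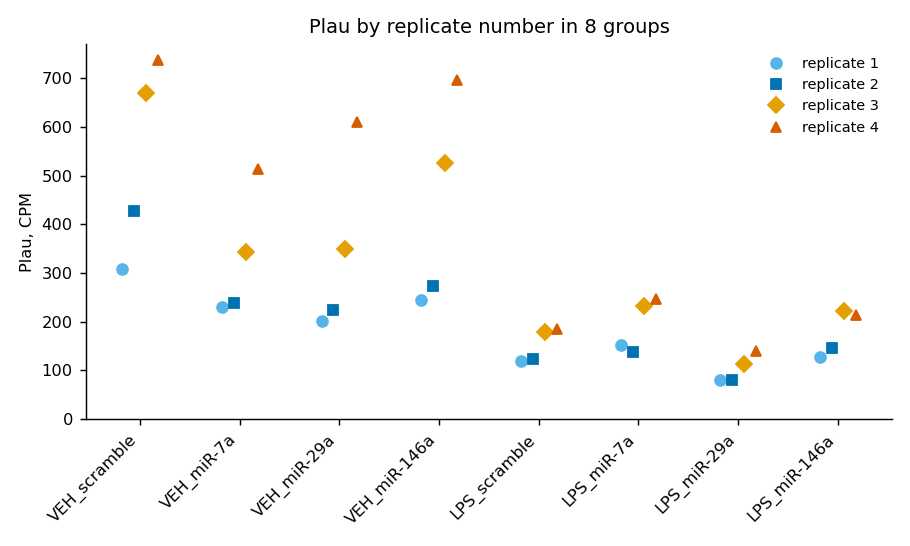
Plau in CPM in each of the 8 groups, with marker shape and colour giving the replicate number of the labels. In every group the markers of replicates 3 and 4 lie above those of replicates 1 and 2, for instance at 669 and 737 against 307 and 428 CPM in VEH_scramble.

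Plau carries the 1 seed match found, for miR-7a. Against scramble its log2 fold change with miR-7a was -0.67 ± 0.31 under vehicle (limma adjusted p = 0.387, or -1.12 without the 3 libraries rich in structural RNA) and 0.32 ± 0.22 under LPS (limma adjusted p = 0.487). The interaction was 1.01 ± 0.41 on the log2 scale, or 1.43 without those 3 libraries, given without a test. With the replicate block the difference under LPS was 0.33 and passed (adjusted p = 0.0182, with 0.0182 to 0.734 over the alternatives on restored counts), with Plau higher in the miR-7a cells. With miR-29a under LPS the Plau log2 fold change was -0.56 ± 0.21 (adjusted p = 0.152), and the adjusted p was 0.00121 with the replicate block and 0.00121 to 0.343 over the alternatives on restored counts.

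F7 and F10 are neighbours on chromosome 8, with F7 at 13026034 to 13035809 and F10 at 13037308 to 13056676, both on the plus strand and 1498 bases apart. For both, every miR-7a library lay below every scramble library of its condition, while vehicle and LPS overlapped in scramble cells. These separations rest on the scaling, since on plain totals the miR-7a and scramble libraries overlapped for both genes in both conditions, for instance F10 under LPS at 25 to 57.6 against 57.3 to 73. Of the 32 F10 values, 8 had 3 decimals restored, each within 0.001 of a whole count (for instance 816.001 in VEH_scramble replicate 4).

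F10 measured 62.6, 57.7, 92.1 and 95.2 CPM in VEH_scramble and 56.1, 55.2, 55.5 and 69.7 CPM in LPS_scramble, 2 ranges that overlapped. With miR-29a under LPS it held 34.8, 20.1, 19.8 and 18.8 CPM, all below scramble, and was 2.66-fold lower (log2 fold change -1.41 ± 0.18, limma adjusted p = 0.00253). Within miR-29a cells LPS lowered F10 2.63-fold (log2 fold change -1.39 ± 0.20, limma adjusted p = 0.000556), whereas in miR-146a cells the log2 fold change of LPS was -0.05 ± 0.16 (limma adjusted p = 0.906). The interaction of miR-29a and LPS for F10 was -1.02 ± 0.28 on the log2 scale, given without a test, and 0.84 on the values as deposited, without restored decimals.

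With miR-7a F10 held 57.1, 47.8, 41.8 and 34.6 CPM in vehicle and 27.8, 31.8, 21.9 and 52.5 CPM in LPS. The log2 fold change against scramble was -0.65 ± 0.23 under vehicle (limma adjusted p = 0.28, or -0.39 without the 3 libraries rich in structural RNA) and -0.88 ± 0.23 under LPS (limma adjusted p = 0.0621). Under LPS the replicate block brought the adjusted p to 0.00165, DESeq2 to 0.0173 and leaving out LPS_miR-7a replicate 4 to 0.00831, in a range of 0.00165 to 0.188 over the alternatives on restored counts. LPS within miR-7a cells left the F10 log2 fold change at -0.61 ± 0.29 (limma adjusted p = 0.252), which was -0.87 and called without that same library (adjusted p = 0.0399, with 0.0399 to 0.571 over the alternatives on restored counts). Without the 3 libraries rich in structural RNA it was -0.83.

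F7 showed the same order with miR-7a. It measured 119, 150, 100 and 120 CPM in VEH_scramble against 97.9, 51.1, 61.2 and 96.2 CPM in VEH_miR-7a (log2 fold change -0.67 ± 0.23, limma adjusted p = 0.265). This value was -0.30 without the 3 libraries rich in structural RNA. Under LPS it measured 98.9, 109, 79.3 and 111 CPM with scramble against 55, 73.3, 59.2 and 76.2 CPM with miR-7a, again without overlap (log2 fold change -0.58 ± 0.15, limma adjusted p = 0.0664). This difference passed with the replicate block (adjusted p = 0.00156) and in DESeq2 (adjusted p = 0.0117), and its adjusted p ran from 0.00156 to 0.194 over the alternatives on restored counts. No seed match of miR-7a was found in the longest annotated 3′ UTR of F7 (493 bases) or F10 (794 bases).

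LPS lowered F7 1.8-fold in miR-29a cells (log2 fold change -0.85 ± 0.17, limma adjusted p = 0.00377). In scramble cells the log2 fold change was -0.28 ± 0.17, in miR-7a cells -0.24 ± 0.21 (limma adjusted p = 0.586, or -0.57 without the 3 libraries rich in structural RNA) and in miR-146a cells -0.20 ± 0.12 (limma adjusted p = 0.421). With miR-29a under LPS the F7 log2 fold change was -0.40 ± 0.17 (limma adjusted p = 0.203), which passed with the replicate block (adjusted p = 0.00826, with 0.00826 to 0.432 over the alternatives on restored counts). With miR-146a under LPS it was 0.10 ± 0.13, and -0.02 to 0.16 when a library was left out.

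F3, the receptor that F7 binds, was scarce throughout (chromosome 3, 121723537 to 121735048, plus strand). Its group means ran from 0.999 ± 0.386 CPM in LPS_miR-29a to 2.77 ± 1.44 CPM in VEH_miR-146a (SD, n = 4), and LPS_miR-146a replicate 4 held 0 counts, which allows up to 3 counts or 0.812 CPM. The vehicle libraries held 2 to 42 counts of F3, so small differences were not detectable at this depth. It failed the filter in 3 comparisons and did not pass in the 5 in which it was tested. For LPS in miR-7a cells its log2 fold change was -0.02, or 0.43 without the 3 libraries rich in structural RNA. In scramble cells it measured 2.4, 2.36, 1.78 and 3.03 CPM in vehicle and 1.06, 1.47, 0.913 and 1.84 CPM in LPS.

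Thbs1 (chromosome 2, 118111876 to 118127133, plus strand) had log2 fold changes above 0 under LPS, at low counts, and none of those tested passed in limma. An opposite-strand lincRNA gene overlaps it and held at most 1 count per library. VEH_scramble libraries measured 0.799, 0.295, 0.509 and 0.817 CPM, from 1 to 7 counts each, and LPS_scramble libraries 2.82, 1.67, 3.65 and 1.65 CPM (log2 fold change 1.65 ± 0.47). With miR-29a it held 2.28, 2.26, 2.17 and 2.21 CPM in vehicle, all above scramble, and 4.62, 3.28, 5.78 and 3.34 CPM in LPS. That is the highest group mean of Thbs1 (4.26 ± 1.19 CPM, SD, n = 4), though its libraries overlapped LPS_scramble. With miR-146a the vehicle and LPS libraries overlapped (0.458 to 1.36 CPM against 0.271 to 4.48 CPM, log2 fold change 1.12 ± 0.72, limma adjusted p = 0.448, with 0.182 to 0.633 over the alternatives on restored counts). With miR-7a, where Thbs1 did not pass the filter, they overlapped as well (0 to 1.65 CPM against 1.1 to 1.46 CPM).

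Against scramble, miR-29a put Thbs1 at 1.72 ± 0.38 on the log2 scale under vehicle (limma adjusted p = 0.152) and 0.97 ± 0.33 under LPS (limma adjusted p = 0.11). The difference under LPS passed with the replicate block (0.84, adjusted p = 0.0191, with 0.0191 to 0.326 over the alternatives on restored counts). LPS within miR-29a cells gave 0.86 ± 0.32 (limma adjusted p = 0.0645), which passed with the block (0.89, adjusted p = 0.038), in edgeR (adjusted p = 0.0386) and in DESeq2 (adjusted p = 0.0477), with 0.0302 to 0.156 over the alternatives on restored counts. With miR-7a under LPS Thbs1 lay below scramble in every library, at 1.44, 1.46, 1.16 and 1.1 CPM, though its log2 fold change of -0.74 ± 0.34 did not pass (limma adjusted p = 0.283). VEH_miR-7a replicate 4, the shallowest library, held 0 counts, which allows up to 3 counts or 3.85 CPM.

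**Figure D3:**
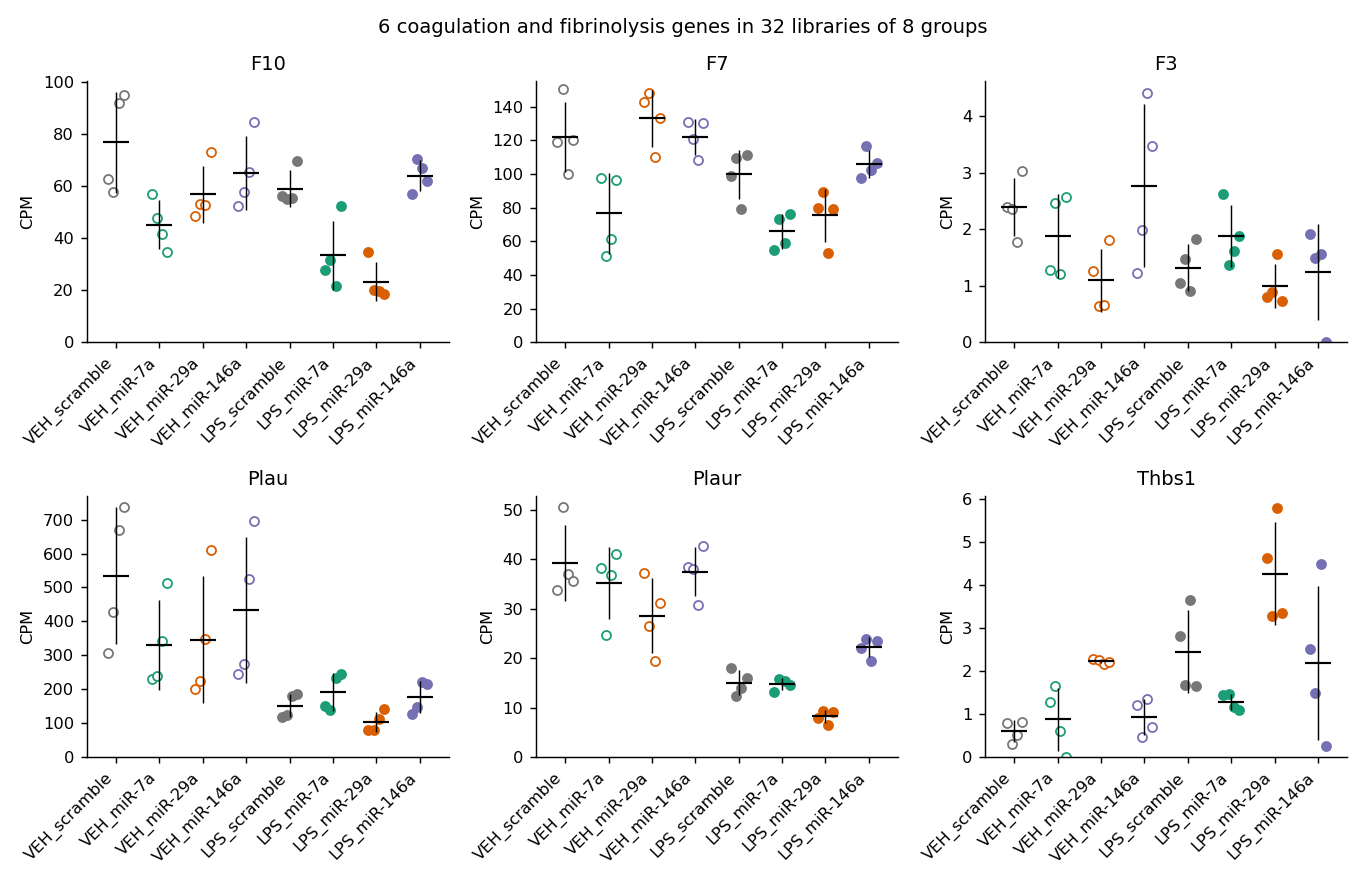
F10, F7, F3, Plau, Plaur and Thbs1 in CPM in each library of the 8 groups, with open circles for vehicle, filled circles for LPS, horizontal lines for means and vertical lines for 1 SD (n = 4). Plaur spans 19.4 to 50.7 CPM in vehicle and 6.57 to 23.9 CPM in LPS, Thbs1 is highest in LPS_miR-29a at 3.28 to 5.78 CPM, and F3 stays at or under 4.4 CPM.

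Counted over the set, LPS called 2 of the 6 members that passed the filter in miR-7a cells (F13a1 and Plaur, both lower), beside 6.87% of the 11929 genes tested. The replicate block called 3 (Plau too), beside 1166 of the 11929 genes. DESeq2 called 3 there (Plau too), beside 11% of all genes in DESeq2, and 1 was called without the 3 libraries rich in structural RNA. In miR-29a cells it called 5 of 6 (F13a1, F10, F7, Plau and Plaur, all lower), beside 26.7% of 12272 genes. The replicate block, edgeR and DESeq2 each called 6 of 6 there, with Thbs1 higher, beside 41.9%, 27.3% and 30.5% of the same genes. In miR-146a cells it called 3 of 7 (F13a1, Plau and Plaur, all lower), beside 4.53% of 12150 genes, and 1 or 2 when a library was left out. These comparisons share no library with each other. Each contains F13a1, around which the set was built.

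**Figure D4:**
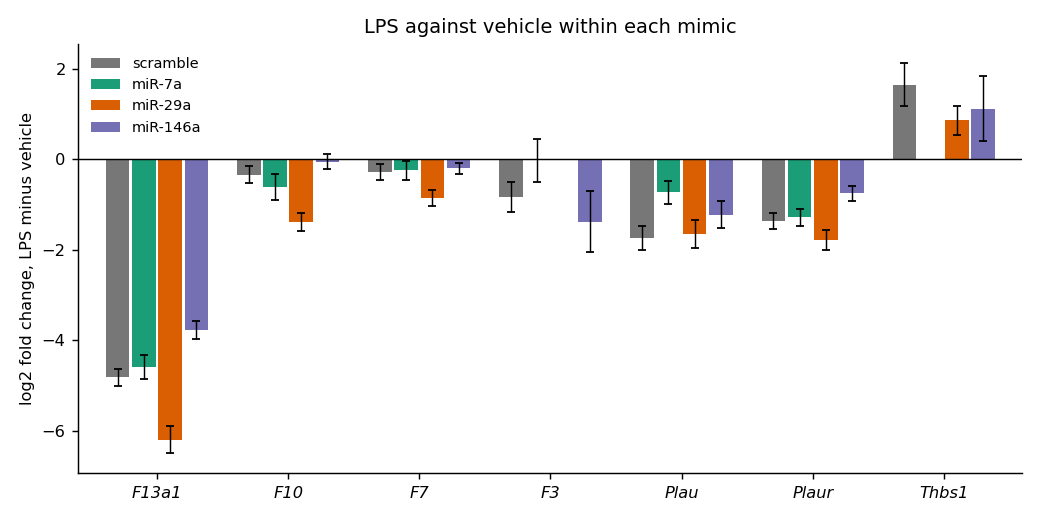
Log2 fold change of LPS against vehicle for each member within scramble, miR-7a, miR-29a and miR-146a cells. Bars are limma estimates and error bars 1 SE, and a missing bar is a gene that did not pass the filter on low counts. F13a1 ranges from -6.20 with miR-29a to -3.77 with miR-146a, and Thbs1 is the member with bars above 0.

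Among the mimics, miR-29a under LPS called 3 of 7 members (F13a1, F10 and Plaur, all lower), beside 5.21% of 13382 genes, and 6 with the replicate block, beside 19.9% of the same genes called by that fit. Its F13a1 call is not independent of the choice of F13a1, which used LPS_scramble. The Plaur call was lost in 5 of the 8 fits that left out a library. miR-7a under LPS called 0 of 7 in limma and edgeR, beside 3.04% of 13046 genes, with 2 members at an unadjusted p under 0.05. DESeq2 called 2, beside 6.31% of all genes in DESeq2, and the replicate block 3, beside 16.3% with the block. Under vehicle miR-7a called 0 of 5, beside 0.287% of 11149 genes, and miR-29a 0 of 6, beside 0.00854% of 11706 genes. Here 3 members with miR-7a and 2 with miR-29a had an unadjusted p under 0.05, and edgeR and DESeq2 called 0 for both. The interactions with LPS called 0.171% of 12288 genes for miR-7a and 0.0241% of 12437 for miR-29a, and no test of the members is given there. An LPS effect called in cells of 1 mimic and not of another is therefore not shown to differ between them.

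**Figure D5:**
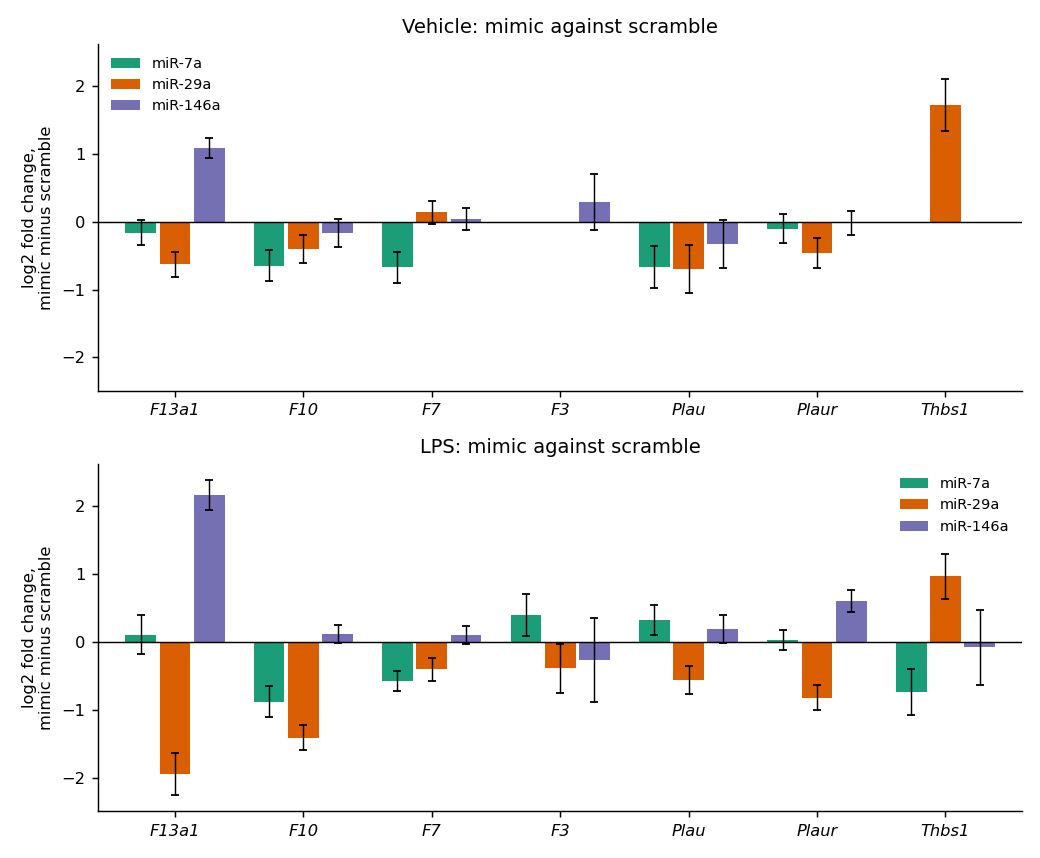
Log2 fold change of each mimic against scramble for each member, under vehicle (top) and LPS (bottom). Bars are limma estimates and error bars 1 SE, and a missing bar is a gene that did not pass the filter. F13a1 has the largest bars in both directions under LPS, 2.17 with miR-146a and -1.95 with miR-29a, while F10 and F7 are below 0 with miR-7a in both conditions.

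A list of 55 further genes of the pathway gave the surroundings of the members, of which 17 to 24 passed the filter in a comparison. Among factors known from liver and plasma, prothrombin (F2) was above 0 in 11 libraries, fibrinogen beta (Fgb) in 6 and plasminogen (Plg) in 5, whereas factor V (F5) was above 0 in 31 and factor IX (F9) in all 32, with group means of 2.51 to 4.81 and 2.61 to 6.02 CPM. In scramble cells LPS called 5 of 21, 3 higher and 2 lower, beside 18.1% of the 12381 genes tested, with a list median of -0.06 on the log2 scale against 0.01 for all genes. Von Willebrand factor (Vwf), which tethers platelets, fell from a mean of 169 to 41.5 CPM (log2 fold change -1.96 ± 0.19, limma adjusted p = 8.14e-05). Cd47, a receptor of Thbs1, rose from 90.6 to 176 CPM (log2 fold change 0.98 ± 0.15, limma adjusted p = 0.00133). The endothelial protein C receptor (Procr), which serves an anticoagulant pathway, rose from 0.669 to 6.35 CPM (log2 fold change 3.72 ± 0.63, limma adjusted p = 0.00213). Without VEH_scramble replicate 1 the Procr value was 2.84. Its vehicle mean lies at the floor of 3 counts (0.35 to 0.884 CPM in these libraries), so the size of its rise is uncertain.

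The same 2 genes, Vwf lower and Procr higher, were called by LPS in the cells of each mimic. Vwf had log2 fold changes of -1.49, -2.24 and -1.55 and Procr of 2.93, 3.02 and 3.14 in miR-7a, miR-29a and miR-146a cells, with limma adjusted p between 3.26e-05 and 0.00634. Procr averaged 0.846, 1.03 and 0.466 CPM in the vehicle groups of these cells, again near the floor. The call of Procr in miR-146a cells was lost without VEH_miR-146a replicate 3 (adjusted p = 0.0585). Without the 3 libraries rich in structural RNA Vwf in miR-7a cells was -1.82, and the call of Procr there was lost at 2.56 (adjusted p = 0.103). Annexin A2 (Anxa2), which gathers plasminogen and its activator at the cell surface, fell in miR-7a cells (log2 fold change -0.90 ± 0.17, limma adjusted p = 0.00723) and in miR-29a cells (log2 fold change -1.19 ± 0.15, limma adjusted p = 0.000182). In miR-7a cells that call too was lost without those 3 libraries, at -1.10 (adjusted p = 0.177). Cd47 rose in miR-146a cells (log2 fold change 0.62 ± 0.14, limma adjusted p = 0.0273), a call lost in 4 of the 8 fits that left out a library. In all, LPS called 5 of 21 list genes in miR-7a cells (1 higher, 4 lower), 10 of 22 in miR-29a cells (3 higher, 7 lower) and 3 of 23 in miR-146a cells (2 higher, 1 lower), beside 6.87%, 26.7% and 4.53% of all genes, with list medians of 0.16, -0.17 and 0.04 against 0.02, -0.01 and -0.02 for all genes.

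Between mimics and scramble few list genes passed. Under LPS miR-29a called 4 of 24 (1 higher, 3 lower, median -0.01), beside 5.21% of all genes. Anxa2 fell (log2 fold change -0.84 ± 0.14, limma adjusted p = 0.00946), Eno1 fell (log2 fold change -0.80 ± 0.17, limma adjusted p = 0.024) and the transglutaminase Tgm2 rose (log2 fold change 2.18 ± 0.54, limma adjusted p = 0.0394), from a mean of 0.415 to 2.1 CPM. Eno1, a glycolytic enzyme that binds plasminogen on cell surfaces, has near-identical copies that can share its reads. The calls of Eno1 and Tgm2 were lost in 4 and 7 of 8 fits that left out a library. miR-7a under LPS called 1 of 23 (median -0.02), beside 3.04% of 13046 genes. This was factor IX (F9), higher by 1.11 ± 0.24 on the log2 scale (limma adjusted p = 0.0367). miR-146a under LPS also called 1 of 23 (median 0.14), beside 2.47% of 12665 genes. This was Vwf, higher at 0.68 ± 0.15 (limma adjusted p = 0.0443). The F9 call was lost in 8 and the Vwf call in 7 of 8 such fits, with adjusted p of up to 0.102 and 0.141.

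Under vehicle limma and edgeR called 0 of 17 list genes with miR-7a, 0 of 18 with miR-29a and 0 of 19 with miR-146a. The medians were -0.15, -0.02 and 0.16, unadjusted p under 0.05 fell on 3, 1 and 3 genes, and DESeq2 called 0, 0 and 2, the last beside 11% of all genes. Interactions with LPS called 0 of 21 list genes for miR-7a and 0 of 22 for miR-29a and for miR-146a in limma, edgeR and DESeq2, while 4, 4 and 1 had an unadjusted p under 0.05. For the interaction of miR-146a and LPS limma called 0 genes in all (0% of 12487), with 1392 at an unadjusted p under 0.05, 0 in edgeR and 19 in DESeq2. With the replicate block the list counts were 5 for miR-7a under LPS, 7 for miR-29a, 4 for miR-146a and 11 for LPS in scramble cells, where the block called 16.3%, 19.9%, 15.5% and 30.3% of all genes.

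Over the 32 libraries, genes whose log2 CPM ran closely with F13a1 among 12480 genes included Cytip (Pearson r = 0.96), Slc17a5 (0.95), Lpin1 (0.95) and Plxnc1 (0.94). Cytip, an adaptor of immune cells that binds cytohesin, averaged 203 to 225 CPM in the vehicle groups. Under LPS it averaged 102 CPM with miR-146a, 62.9 with scramble, 53.8 with miR-7a and 35 with miR-29a, so that LPS_miR-146a was highest and LPS_miR-29a lowest, as for F13a1. Fcgr1 (-0.95), Oasl2, Xaf1 and Avil (each -0.94) ran against it. Fcgr1, the high-affinity receptor for IgG, averaged 42.4 to 53.2 CPM in vehicle and, under LPS, 97.6 CPM with miR-146a, 129 with scramble, 154 with miR-7a and 161 with miR-29a. Of the members, Plaur came closest to F13a1 (r = 0.94), followed by Plau (0.78), F10 (0.66), F7 (0.53) and F3 (0.39), and Thbs1 ran against it (-0.57). These are descriptions over libraries that fall into vehicle and LPS sets and share their depth and scaling.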

How the data were processed

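RNA sequencing of 32 BV-2 libraries was analysed in 8 groups of 4, taken from the sample labels. The authors depleted ribosomal RNA, built CORALL total RNA libraries and counted reads with nf-core rnaseq on GRCm38. Their processing notes name limma and edgeR. The deposited values are estimated counts printed without decimal marks (of values of 20000 or more, 0.0155% end in 0). The mark was restored by a model that weighs 0 to 3 lost decimals from last digits and the level of the gene in the group. It changed 28.5% of 590874 values above 0, and 1.16% had a posterior under 0.9. A gene was dropped from any comparison whose libraries held such a value for it.

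CPM used TMM-scaled totals (edgeR 4.0.16). Each pair of groups was fitted by limma-voom (limma 3.58.1, R 4.3.3, filterByExpr), with Benjamini-Hochberg adjustment over all genes tested and calls under 0.05. Restoration and tests were run on simulated data. These took the places and digits of lost decimals from the restored table, so they cannot show that the real marks were read correctly. Planned tests of members in the interactions of miR-7a and miR-29a with LPS were set aside, because those contain the contrast that chose the members. The members and gene lists were chosen with earlier results of these data known. The text names the members, at most 3 called list genes per comparison by smallest adjusted p, and the 5 genes most and least like F13a1 (log2 CPM, prior count 2), of which some are not reported here. In 6 of 13 comparisons (3 mimics under LPS, miR-29a under vehicle, LPS in scramble and miR-29a cells) every same-numbered pair of libraries correlated over 0.1 in deviations from the group means (0.12 to 0.49), so replicate numbers were taken as pairs there. The same replicate numbers run through all 8 groups, so this cut-off does not show the other comparisons to be unpaired. Alternatives were edgeR, DESeq2 1.42.0, no filter, a replicate block, deposited values, a posterior of 0.99 and leaving out each library. Leaving out structural RNA genes, or 3 VEH_miR-7a libraries, was added after seeing the data.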

Additional observations from a re-analysis of the deposited data

Results flagged for a closer look

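F10 in LPS_scramble replicate 4 was 69.7 CPM, while the other 3 libraries of the group lay between 55.2 and 56.1 CPM. F10 in LPS_miR-29a replicate 1 was 34.8 CPM, while the other 3 lay between 18.8 and 20.1 CPM. In both groups the gap of that library to its nearest neighbour was 0.938 and 0.919 of the whole range, above the limit for 4 samples. Chance alone flags about 1 group in 20, and each of the 7 genes was looked at in 8 groups. Neither value had a decimal mark restored. F10 stayed lower with miR-29a than with scramble under LPS in all 8 fits that left out a library, at -1.60 to -1.32 on the log2 scale.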

How the results depend on the processing

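Depth limits F3 and Thbs1, and n = 4 limits every contrast. Of 1458 refitted log2 fold changes 75 lost a call, 17 gained one, 34 tested ones reversed and 21 untested ones moved. The other 1311 kept direction and side of the threshold, or, where untested, moved by less than the SE, with 12 of these changing sign. On the values as deposited, without restored decimals, called members were 0 (miR-29a under LPS), 0 (miR-146a under vehicle) and 1 each for LPS in miR-7a, miR-29a and miR-146a cells. There F10 turned to 6.95 (miR-7a under LPS), 1.56 (miR-29a under LPS), 0.44 (miR-29a under vehicle), 7.24 (LPS, miR-7a) and 4.78 (LPS, miR-146a), and, untested, to 9.75 and 0.84 in the miR-7a and miR-29a interactions. F13a1 turned to -0.08 (miR-7a under LPS) and, untested, -0.06 (its interaction), Plaur to -0.08 (miR-7a under LPS), F3 to -1.89 (miR-146a under vehicle) and 5.04 (LPS, miR-7a) and, untested, 1.73 (miR-146a interaction), Anxa2 to 1.24 (miR-29a under LPS), 1.35 (LPS, miR-7a) and 3.55 (LPS, miR-29a) and Vwf to 3.35 (LPS, miR-146a). The F13a1 calls of miR-29a under LPS, miR-146a under vehicle and LPS in miR-29a cells were lost there (adjusted p = 0.319, 0.537 and 0.056), although F13a1 itself had no value restored.

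Members called by miR-7a under LPS were 2 in DESeq2, 1 with no filter and 3 with the replicate block, and by miR-29a under LPS 6 with the block. Where numbers were not taken as pairs, the block called Plau for LPS in miR-7a cells (adjusted p = 0.00266) and put F10 at 0.00 for LPS in miR-146a cells. Without 3 VEH_miR-7a libraries LPS in miR-7a cells called 1 member, F3 was 0.43 there, Plaur 0.00 under vehicle and F7, untested, -0.30 in the interaction. Near 0, Plaur with miR-7a under LPS was -0.01 in edgeR and -0.00 in DESeq2, F3 for LPS in miR-7a cells 0.17 and 0.14, and Plau in the miR-29a interaction, untested, -0.06 with no filter. On plain totals F13a1 in VEH_miR-7a averaged 558 CPM.

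Leaving out 1 library gave 0 to 1 members called for miR-7a under LPS and miR-146a under vehicle, 2 to 3 for miR-29a under LPS and LPS in miR-7a cells, 5 to 6 for LPS in miR-29a cells and 1 to 2 for LPS in miR-146a cells. Signs turned for F13a1 (-0.20 to 0.38) and Plaur (-0.07 to 0.08) with miR-7a under LPS, Plaur with miR-7a (-0.17 to 0.02) and miR-146a (-0.10 to 0.09) and F7 with miR-146a (-0.06 to 0.12) under vehicle, F3 for LPS in miR-7a cells (-0.34 to 0.15), and F10 for LPS in miR-146a cells (-0.12 to 0.09). Untested values turned for F7 (-0.02 to 0.16), F3 (-0.56 to 0.27) and Thbs1 (-0.57 to 0.28) with miR-146a under LPS, for F7 (-0.02 to 0.16) and F3 (as high as 0.14) in its interaction, and for F10 (-0.61 to 0.07), F7 (-0.19 to 0.37) and Plaur (-0.24 to 0.32) in that of miR-7a. Apart from the values given, the cause of these changes was not tested.

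Genes called in all moved by over 1.5 times from the counts in the report as follows. The block gave 3750 for LPS in scramble cells, where leaving out a library gave 1138 to 2943, and under LPS 2128 for miR-7a, 2660 for miR-29a and 1958 for miR-146a (397, 697 and 313 without it), 253, 89 and 1437 under vehicle (32, 1 and 292), 5139 and 1127 for LPS in miR-29a and miR-146a cells (3282 and 550) and 73 and 24 for the miR-7a and miR-29a interactions (21 and 3). DESeq2 gave 823, 1078 and 685 under LPS, 273, 107 and 1307 under vehicle, 1318 and 851 for LPS in miR-7a (820) and miR-146a cells and 103, 23 and 19 for the interactions. edgeR gave 192 for miR-146a under LPS and 68 and 3 for miR-7a and miR-29a under vehicle. No filter gave 61, 3 and 471 under vehicle, 7926 for LPS in miR-7a cells and 7 for the miR-29a interaction. Deposited values gave 108 for LPS in scramble cells, 265, 229 and 36 with the mimics, 35, 18 and 31 under LPS, 56, 22 and 21 under vehicle and 62, 6 and 13 for the interactions. Without 3 VEH_miR-7a libraries 9 (vehicle), 115 (LPS) and 12 (interaction) were called, without structural RNA 73 for miR-7a under vehicle, and at a posterior of 0.99 8 in the miR-7a interaction. Leaving out 1 library gave 71 to 422, 220 to 760 and 32 to 271 under LPS, 20 to 277, 0 to 4 and 0 to 1266 under vehicle, 464 to 868 and 286 to 510 for LPS in miR-7a and miR-146a cells, 11 to 164 for the miR-7a interaction and 1 to 2 for that of miR-29a.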
